A study of Homo sapiens with 12 samples.

Results

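The genes of the primary cilium and of intraflagellar transport were followed in RCC4, a cultured line of human clear cell kidney cancer, after silencing of MESH1, ATF4 or both. They were the genes with a probe set annotated to exactly 1 symbol that was either on a list of 34 cilium genes or began with IFT, BBS or DNAAF and a digit. This gave 47 of the 11963 genes measured, with 69 probe sets. Of the 34 listed genes, 33 were measured, PKD2 was not analysed here, and the name starts added 14 genes.

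The 12 arrays fell into 4 groups of 3 cultures that the labels call biological replicates. RCC4 cells received siMESH1 and siATF4 together (siMESH1+siATF4), siMESH1 alone, siATF4 alone, or siNT, a non-targeting control siRNA. Each culture was given 40 pmol of siRNA and harvested after 72 h. siMESH1 was a single siRNA, siATF4 a pool of siRNAs, and RCC4 was the only line. No source used here gives the split of the 40 pmol between both agents in the double silencing.

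The primary cilium is a single microtubule-based antenna that grows from the mother centriole of a resting cell and is taken down before division. Intraflagellar transport builds it: trains of IFT-B and IFT-A proteins are carried to the tip by kinesin-2 and back to the base by cytoplasmic dynein-2, the BBSome moves membrane proteins out, and the transition zone at the base acts as the gate. In kidney tubules the cilium senses flow, its failure causes cystic disease, and the VHL protein, which RCC4 cells lack in functional form, is known to help maintain it.

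All values are log2 signals with the siNT mean subtracted, so a value of 1 is a doubling and 0 is the siNT mean. They are differences without absolute levels, so neither the presence of cilium transcripts nor the identity of the cells could be checked by level. A gene was called when limma's adjusted p over all 11963 genes was under 0.05 and the difference reached 0.5 on the log2 scale, which is called the fold minimum below. "Rose" and "fell" are used only of called differences. In bulk RNA of this kind, fewer cells of a type and less RNA per cell cannot be told apart.

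ATF4 itself stood at -2.27, -2.46 and -2.23 on the siMESH1+siATF4 arrays, -0.02, -0.10 and 0.04 on the siMESH1 arrays and -2.29, -2.33 and -2.30 on the siATF4 arrays, against -0.10, 0.003 and 0.10 on the siNT arrays. It was low wherever siATF4 was given, and siMESH1 alone overlapped siNT. HDDC3, the gene of MESH1, was not analysed here, so the siMESH1 label rests on the description alone. Signal from the 3′ end of the ACTB control minus that from its 5′ end, relative to siNT, averaged -0.30 ± 0.13 with siMESH1+siATF4, -0.11 ± 0.15 with siMESH1 and -0.29 ± 0.08 with siATF4, against 0 ± 0.06 in siNT (SD, n = 3 each). The same measure in GAPDH averaged -0.02 ± 0.08, 0.08 ± 0.12 and -0.09 ± 0.09 in those groups, against 0 ± 0.02 in siNT. The part of these RNA measures in the results below was not tested. Markers of leukocytes (4 measured), endothelium (3) and multiciliated epithelium (2) gave 0 calls in each of the 7 comparisons. Of all genes, 0.351% to 5.37% were called in a given direction. Markers of renal epithelium and clear cell carcinoma (9 measured) did give calls. KRT18 (-0.54) and COXFA4L2, also named NDUFA4L2 (-0.70), were lower with siMESH1, where 5.37% of all genes were called lower. With siMESH1+siATF4, KRT18 was higher (0.63) and COXFA4L2 lower (-0.71), against 4.4% and 5.25% of all genes. With siATF4 there were 0 calls, against 2.49% of all genes called higher and 4.03% lower.

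The median of these 47 cilium genes, chosen with earlier results of these data known, stood higher after silencing of MESH1 alone. Over 71 other cilium genes, described below, the siMESH1 median was 0.08. Of those, 2.82% were called higher, the same share as of all genes. The median of the 47 genes was 0.06, 0.05 and 0.07 on the siMESH1+siATF4 arrays and 0.20, 0.22 and 0.20 on the siMESH1 arrays. It was -0.02 on each siATF4 array, against -0.01, 0.03 and -0.03 on the siNT arrays. The siMESH1 arrays lay above all 9 others, while the median of all genes ranged from -0.01 to 0.03 over the 12 arrays.

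**Figure D1:**
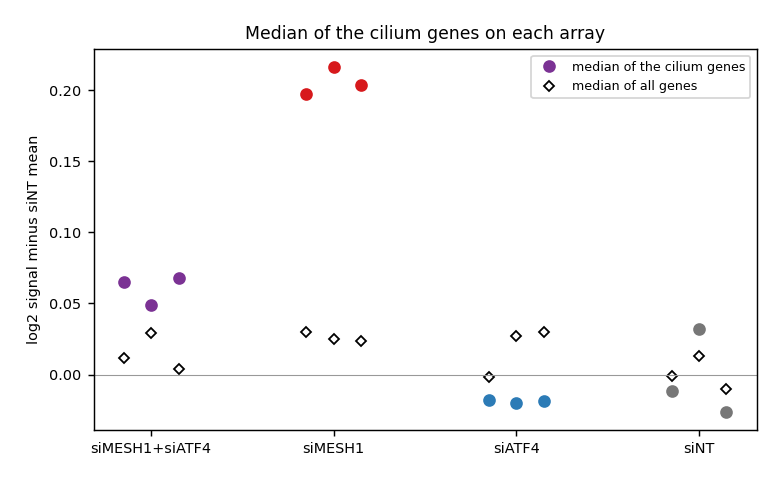
Median log2 signal minus the siNT mean (y axis) on each array, by group (x axis). Filled circles are the median of the 47 cilium genes and open diamonds that of all 11963 genes. The 3 siMESH1 arrays sit near 0.20, the siMESH1+siATF4 arrays between 0.05 and 0.07, and the siATF4 and siNT arrays near 0. The siATF4 median of the fitted differences, -0.03, turns to 0.12 when arrays are centred on housekeeping genes, which moves the median of all genes to 0.17.

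With siMESH1 against siNT, 42 of the 47 differences were above 0, with a median of 0.21 against 0.03 over all genes. The calls were 5 higher, 10.6% of the cilium genes against 2.82% of all genes, and 0 lower, against 5.37% of all genes. Without the fold minimum, 24 cilium genes (51.1%) were higher and 1 was lower at an adjusted p under 0.05, against 17.3% and 16.3% of all genes. In 26 of the 47 every siMESH1 array was above every siNT array, a separation seen in 24.2% of all genes. Most of these differences stayed below the fold minimum. Of the 16 cilium genes with more than 1 probe set, 4 had probe sets of opposite sign in this comparison, against 9 with siMESH1+siATF4 and 10 with siATF4, each relative to siNT.

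**Figure D2:**
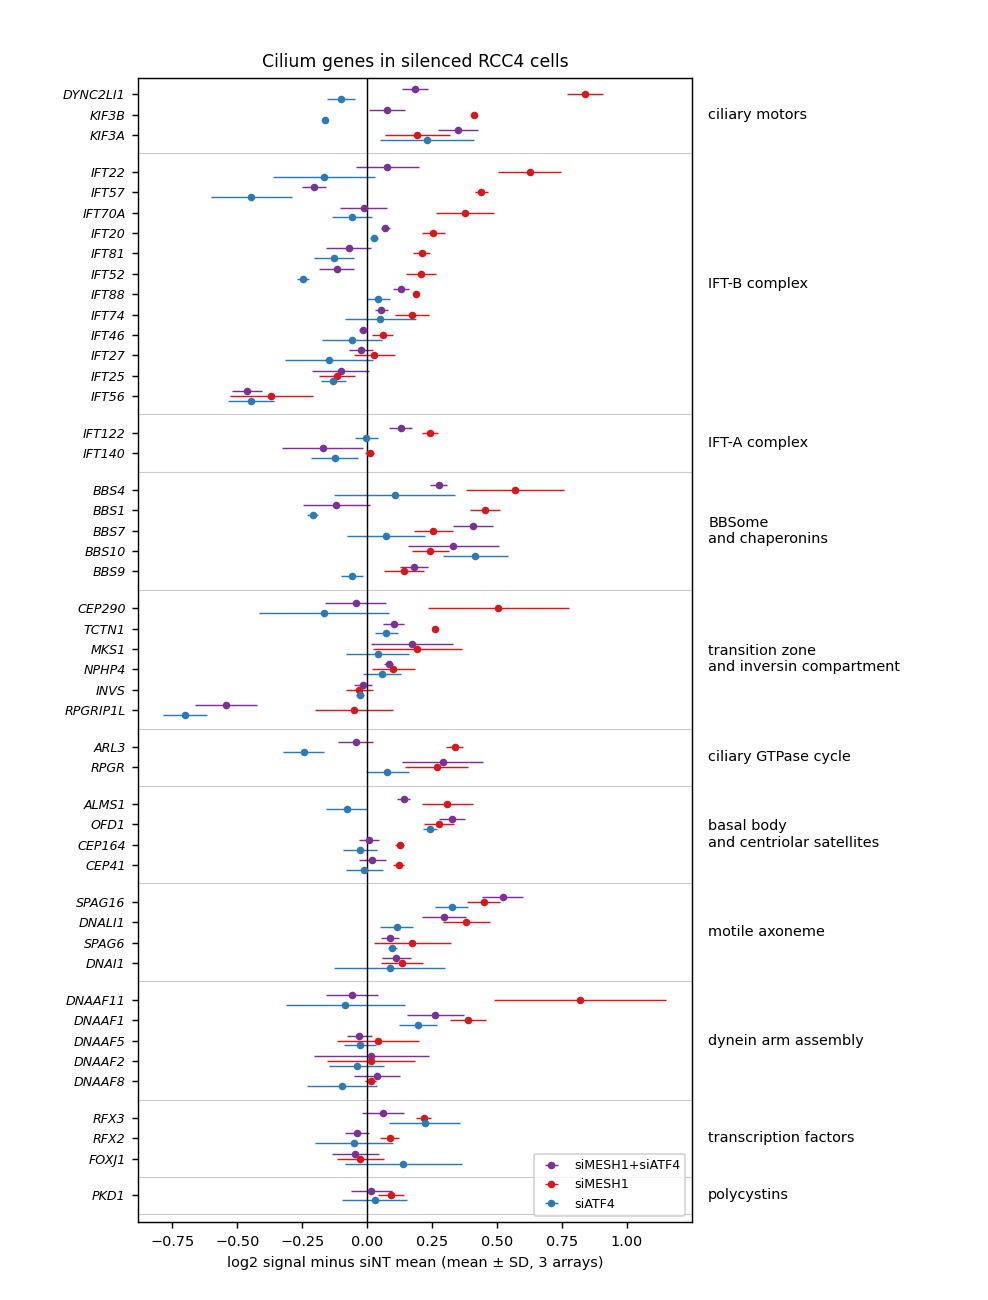
Mean log2 signal minus the siNT mean (x axis) of each of the 47 cilium genes (y axis), grouped by role and ordered within a role by the siMESH1 value. Points and bars are means ± SD of 3 arrays for siMESH1+siATF4, siMESH1 and siATF4. Most siMESH1 points lie right of 0, with DYNC2LI1 at 0.84 and DNAAF11 at 0.82 farthest, and RPGRIP1L lies at -0.54 with siMESH1+siATF4 and -0.70 with siATF4.

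Among the motors, DYNC2LI1 changed most. It encodes the light intermediate chain of dynein-2, the motor that returns trains to the base. The arrays read 0.20, 0.13 and 0.23 with siMESH1+siATF4 and 0.91, 0.82 and 0.78 with siMESH1. With siATF4 the arrays read -0.06, -0.08 and -0.16, against -0.02, 0.05 and -0.03 with siNT. The siMESH1 arrays were well above every other array, and the siMESH1+siATF4 arrays lay between these and siNT without overlap. DYNC2LI1 rose with siMESH1 by 0.84 ± 0.05 (SE), adjusted p = 1.10e-07, a fold of 1.79, and fell in siMESH1+siATF4 against siMESH1 by 0.65 (SE 0.05, adjusted p = 2.03e-06). Its 2 probe sets gave 0.73 and 0.94 with siMESH1.

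KIF3B and KIF3A are the motor subunits of kinesin-2, which drives trains outward. KIF3B read -0.0015, 0.14 and 0.10 with siMESH1+siATF4 and 0.41, 0.42 and 0.41 with siMESH1. The siATF4 arrays read -0.17, -0.15 and -0.16, against 0.0031, 0.04 and -0.04 with siNT. The siMESH1 arrays stood clear of all others and the siATF4 arrays lay below siNT. KIF3B was higher in siMESH1 than in siATF4 by 0.57 ± 0.05 (SE), adjusted p = 1.20e-06, while its siMESH1 difference from siNT, 0.41, missed the fold minimum. KIF3A averaged 0.35, 0.19 and 0.23 with siMESH1+siATF4, siMESH1 and siATF4 relative to siNT, none of them called.

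Of the 12 IFT-B genes, which form the part of the train that carries tubulin, 1 was called higher and 0 lower with siMESH1. Their median difference was 0.20. IFT22, a small GTPase-like subunit, rose with siMESH1 by 0.62 ± 0.10 (SE), adjusted p = 2.50e-04. IFT22 read 0.17, -0.06 and 0.12 with siMESH1+siATF4 and 0.63, 0.50 and 0.75 with siMESH1. On the siATF4 arrays it was -0.02, -0.09 and -0.39, against 0.06, -0.05 and -0.01 with siNT. Only the siMESH1 arrays were separate, and IFT22 fell in siMESH1+siATF4 against siMESH1 by 0.55 (SE 0.10, adjusted p = 9.41e-04).

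IFT57, a subunit of the peripheral IFT-B subcomplex, separated siMESH1 and siATF4 in opposite directions from siNT. IFT57 read -0.16, -0.21 and -0.25 with siMESH1+siATF4 and 0.41, 0.46 and 0.45 with siMESH1. With siATF4 the arrays read -0.27, -0.55 and -0.52, against -0.05, 0.02 and 0.03 with siNT. The siMESH1 arrays were all above siNT and the other silenced arrays all below it. Against siNT neither single silencing reached the fold minimum (0.44 and -0.45), but siMESH1 exceeded siATF4 by 0.89 ± 0.07 (SE), adjusted p = 6.54e-07, and siMESH1+siATF4 was below siMESH1 by 0.65 (SE 0.07, adjusted p = 1.67e-05).

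IFT56, an IFT-B subunit known to load motility proteins, was the 1 gene of the 47 lower with siMESH1 at an adjusted p under 0.05. It was at -0.52, -0.45 and -0.41 with siMESH1+siATF4, -0.24, -0.32 and -0.54 with siMESH1 and -0.55, -0.40 and -0.39 with siATF4, against -0.02, 0.02 and -0.01 with siNT. Every silenced array was below every siNT array, and the differences of -0.46, -0.37 and -0.45 had adjusted p of 3.08e-04, 0.00184 and 5.82e-04 without reaching the fold minimum. Of the other IFT-B genes, IFT20, which ferries cargo from the Golgi, IFT52 and IFT88 of the complex core, and IFT81, which binds tubulin, had siMESH1 differences of 0.25, 0.21, 0.19 and 0.21, all below the fold minimum. IFT25, a small subunit of IFT-B, was also below 0 with siMESH1, at -0.12 (adjusted p = 0.215). In the IFT-A complex, which is needed for the return path, IFT122 stood at 0.24 (adjusted p = 0.00322) and IFT140 at 0.01 (adjusted p = 0.953) with siMESH1.

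The BBSome and its chaperonin-like assembly protein BBS10 gave 1 call with siMESH1 among 5 genes. BBS4, a core subunit that links the complex to centriolar satellites, rose with siMESH1 by 0.57 ± 0.11 (SE), adjusted p = 0.00159. BBS4 read 0.31, 0.26 and 0.25 with siMESH1+siATF4 and 0.41, 0.51 and 0.78 with siMESH1. The siATF4 arrays read 0.37, -0.06 and 0.01, against 0.07, 0.06 and -0.13 with siNT. The siMESH1 arrays were above all others. Without siMESH1 replicate 3 the difference was 0.46, under the fold minimum. BBS1, the subunit that recruits the BBSome to membranes, read 0.03, -0.20 and -0.19 with siMESH1+siATF4 and 0.39, 0.51 and 0.46 with siMESH1. On the siATF4 arrays it was -0.22, -0.19 and -0.23, against 0.0013, 0.06 and -0.06 with siNT. Its siMESH1 arrays were above all others, its siMESH1 difference from siNT of 0.45 stayed below the fold minimum, and siMESH1+siATF4 was below siMESH1 by 0.57 (SE 0.06, adjusted p = 2.58e-05). BBS10, a chaperonin-like protein that assembles the BBSome, averaged 0.33, 0.24 and 0.42 with siMESH1+siATF4, siMESH1 and siATF4 relative to siNT, all under the fold minimum.

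At the transition zone, 1 of 6 genes rose with siMESH1 and another fell with siATF4. CEP290 builds the links between microtubules and membrane. It read -0.15, -0.07 and 0.08 with siMESH1+siATF4 and 0.31, 0.39 and 0.81 with siMESH1. With siATF4 the arrays read 0.12, -0.30 and -0.32, against 0.05, 0.07 and -0.12 with siNT. The siMESH1 arrays lay above all others and spread widely. CEP290 rose with siMESH1 by 0.504 ± 0.14 (SE), adjusted p = 0.0123, just past the fold minimum, and its 2 probe sets gave 0.25 and 0.76. Without siMESH1 replicate 3 the difference was 0.35 (adjusted p = 0.0535), and without siNT replicate 3 it was 0.45.

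RPGRIP1L, a scaffold of the transition zone, was the 1 gene of the 47 called lower with siATF4. It read -0.49, -0.68 and -0.46 with siMESH1+siATF4 and -0.20, 0.10 and -0.06 with siMESH1. The siATF4 arrays read -0.61, -0.77 and -0.73, against -0.13, 0.23 and -0.10 with siNT. Both groups with siATF4 were below all arrays without it. RPGRIP1L fell by 0.70 with siATF4 (SE 0.10, adjusted p = 2.12e-04) and by 0.54 with siMESH1+siATF4 (SE 0.10, adjusted p = 0.00103). The second call was lost when siNT replicate 2 (-0.43) or siMESH1+siATF4 replicate 2 (-0.48) was left out, and under housekeeping centring (-0.32). TCTN1, a protein of the gate complex, stood at 0.26 with siMESH1 (adjusted p = 0.00283).

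Of the ciliary GTPase cycle, ARL3 releases lipid-modified cargo inside the cilium. It read -0.0018, -0.01 and -0.12 with siMESH1+siATF4 and 0.34, 0.37 and 0.30 with siMESH1. On the siATF4 arrays it was -0.31, -0.16 and -0.27, against -0.04, 0.11 and -0.07 with siNT. The siMESH1 arrays were above all others, and siMESH1 exceeded siATF4 by 0.58 ± 0.06 (SE), adjusted p = 9.67e-06. The 2 probe sets disagreed in size, at 1.02 and 0.14 for that comparison. Against siNT they differed in sign, at -0.51 and 0.02 with siATF4 and -0.21 and 0.13 with siMESH1+siATF4. In the second probe set a siATF4 array (0.20) lay above siMESH1 arrays at 0.18 and 0.07, so the separation holds for the gene mean only. RPGR, a protein of the connecting region that binds RPGRIP1L, averaged 0.29, 0.27 and 0.08 with siMESH1+siATF4, siMESH1 and siATF4 relative to siNT. OFD1, a satellite protein of the basal body, averaged 0.33, 0.28 and 0.24 for the same groups, none called.

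Among genes of motile cilia, DNAAF11, which helps assemble dynein arms in the cytoplasm, rose with siMESH1 by 0.82 ± 0.15 (SE), adjusted p = 6.80e-04, a fold of 1.77. Its only probe set read -0.12, -0.11 and 0.06 with siMESH1+siATF4 and 0.54, 1.19 and 0.73 with siMESH1. With siATF4 the arrays read 0.16, -0.30 and -0.11, against -0.10, 0.03 and 0.06 with siNT. The siMESH1 arrays did not overlap any other but spread from 0.54 to 1.19. DNAAF11 fell in siMESH1+siATF4 against siMESH1 by 0.88 (SE 0.15, adjusted p = 5.47e-04). SPAG16, a protein of the central pair of motile axonemes, read 0.52, 0.60 and 0.45 with siMESH1+siATF4, 0.38, 0.49 and 0.48 with siMESH1 and 0.40, 0.30 and 0.28 with siATF4, against -0.02, 0.05 and -0.03 with siNT. Every silenced array was above every siNT array. SPAG16 rose with siMESH1+siATF4 by 0.52 ± 0.06 (SE), adjusted p = 1.17e-05, and the call was lost without siMESH1+siATF4 replicate 2 (0.48). The other 4 dynein arm assembly genes gave 0 calls in the 7 comparisons, where 0.351% to 5.37% of all genes were called in a given direction.

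**Figure D3:**
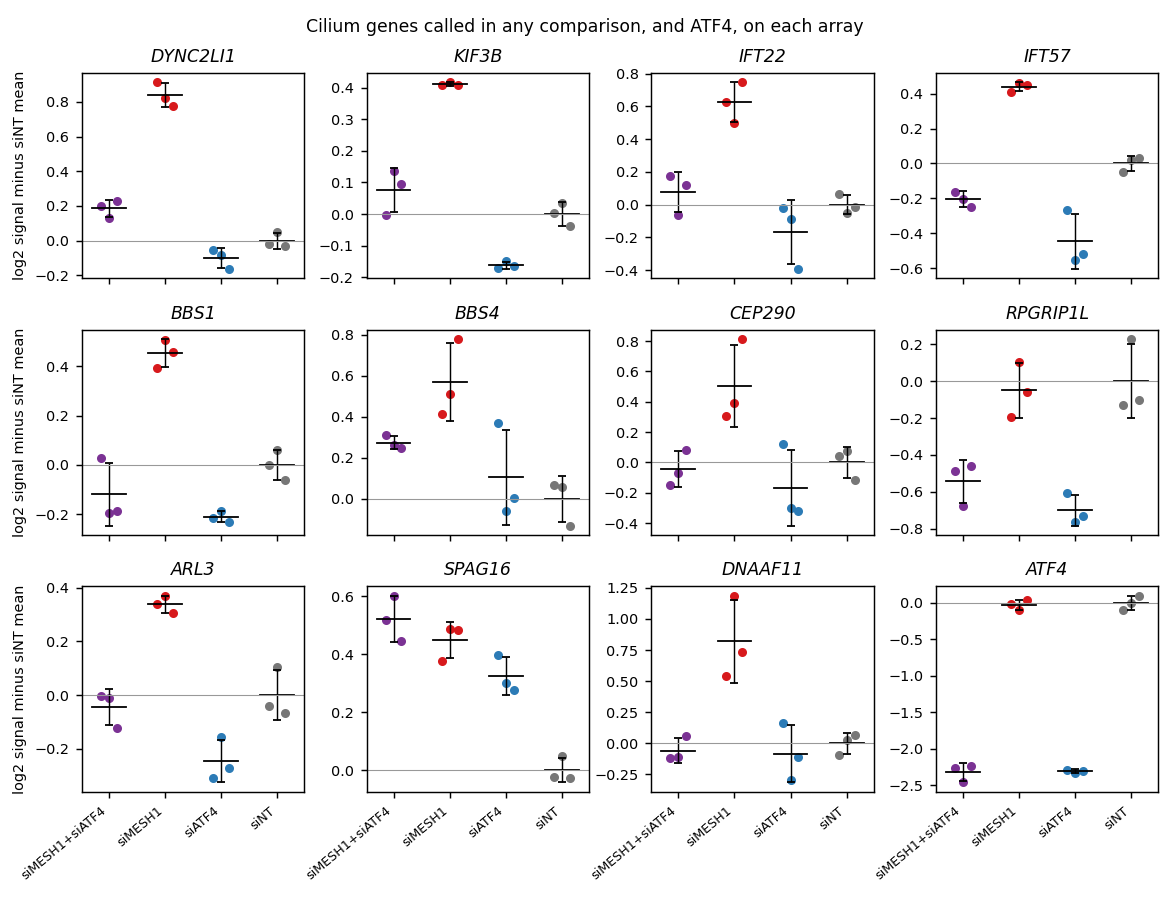
Log2 signal minus the siNT mean (y axis, own scale per panel) on each array, by group (x axis), for the 11 cilium genes called in any comparison and for ATF4. Points are arrays, and bars are means ± SD of 3 arrays. In DYNC2LI1, KIF3B, IFT22, IFT57, BBS1, BBS4, CEP290, ARL3 and DNAAF11 the siMESH1 arrays lie above all others, in ARL3 for the gene mean only. RPGRIP1L is low wherever ATF4 is silenced, and SPAG16 is above siNT in all 3 silenced groups.

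None of the 3 transcription factors was called in any comparison. RFX2 and RFX3 bind the X-box in cilium gene promoters, and FOXJ1 drives motile cilium genes. RFX3 averaged 0.06, 0.22 and 0.22 with siMESH1+siATF4, siMESH1 and siATF4, and the siMESH1 (adjusted p = 0.04) and siATF4 (adjusted p = 0.0428) differences were under 0.05, below the fold minimum. Its interaction, the effect of siMESH1 with siATF4 minus that without it, was -0.38 ± 0.11 (SE), adjusted p = 0.0355, also below the fold minimum. RFX2 averaged -0.04, 0.09 and -0.05, and FOXJ1 -0.04, -0.03 and 0.14, with adjusted p from 0.328 to 0.874 for FOXJ1. PKD1, which encodes the flow-sensing polycystin-1 and has near-identical pseudogenes whose RNA its probe sets may also read, averaged 0.02, 0.09 and 0.03.

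Promoters were read for the X-box, the site the RFX factors bind. It was searched as GTTNCC, then 0 to 3 bases, then GGNAAC, a pattern that reads the same on both strands, in RefSeq windows of 300 bases (GRCh38.p14, 250 before to 50 after the start). A window was given for 41 of the 47 genes. The pattern stood in 5 of the 41 (12.2%), against 247 of 27305 genes with a window (0.905%). Sequences around the 5 matches follow, 5′ to 3′ on the strand of the gene, with the match in capitals.

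CEP41, chr7:130441150-130441188, minus strand: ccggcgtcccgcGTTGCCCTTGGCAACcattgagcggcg
IFT122, chr3:129440200-129440238, plus strand: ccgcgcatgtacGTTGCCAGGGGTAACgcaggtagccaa
IFT70A, chr2:177618715-177618752, minus strand: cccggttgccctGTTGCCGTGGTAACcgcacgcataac
SPAG16, chr2:213284268-213284305, plus strand: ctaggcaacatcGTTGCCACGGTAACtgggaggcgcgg
TCTN1, chr12:110614117-110614153, plus strand: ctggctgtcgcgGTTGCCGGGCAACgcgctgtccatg

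The first base of the match lay 160 bases before the start in CEP41, 12 before it in IFT122 and 184 before it in SPAG16, and at or just after it in TCTN1 and IFT70A. With siMESH1 these genes stood at 0.12 (CEP41, which supports tubulin modification), 0.24 (IFT122), 0.38 (IFT70A), 0.45 (SPAG16) and 0.26 (TCTN1), all above 0 and none called in that comparison. The cilium genes that rose with siMESH1 and had a window, DYNC2LI1, BBS4 and CEP290, held no full match. Either arm of the X-box alone, GTTNCC or GGNAAC, which are each other's reverse complement, stood in 35 of the 41 genes (85.4%) and in 50.3% of all genes with a window. The 250 bases before the start of those 3 genes are shown because these genes rose, with X-box arms in capitals. These matches are letters only and no binding was measured.

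DYNC2LI1, chr2:43773789-43774038, plus strand: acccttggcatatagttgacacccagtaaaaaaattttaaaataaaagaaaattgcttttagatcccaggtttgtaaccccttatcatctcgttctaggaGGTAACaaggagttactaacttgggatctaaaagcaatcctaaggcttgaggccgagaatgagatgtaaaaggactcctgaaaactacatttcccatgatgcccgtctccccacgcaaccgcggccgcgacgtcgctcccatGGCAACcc
BBS4, chr15:72685957-72686206, plus strand: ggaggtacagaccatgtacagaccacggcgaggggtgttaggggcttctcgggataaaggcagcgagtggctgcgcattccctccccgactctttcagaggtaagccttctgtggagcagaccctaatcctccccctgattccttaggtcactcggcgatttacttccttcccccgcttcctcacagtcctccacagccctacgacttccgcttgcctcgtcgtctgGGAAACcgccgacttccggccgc
CEP290, chr12:88142089-88142338, minus strand: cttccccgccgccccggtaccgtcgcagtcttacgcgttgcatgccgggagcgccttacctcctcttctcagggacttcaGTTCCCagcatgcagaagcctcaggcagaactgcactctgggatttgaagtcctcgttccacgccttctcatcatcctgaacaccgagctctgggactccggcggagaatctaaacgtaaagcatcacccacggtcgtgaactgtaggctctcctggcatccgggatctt

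With ATF4 silencing alone the 47 cilium genes gave 1 call, RPGRIP1L. With siATF4 against siNT the median was -0.03 over the cilium genes and 0.02 over all genes. Centring arrays on housekeeping genes gave 0.12 over the cilium genes and 0.17 over all genes. It subtracts the same value from every gene of an array, so it could not change the order of these medians. The cilium median was 0.04 when probe sets with the suffix _s_at or _x_at were left out, over fewer genes. The median of all genes was not taken in that setting. The calls were 0 higher and 1 lower, against 2.49% and 4.03% of all genes. Without the fold minimum 4 were higher and 7 lower, against 14.8% and 13.8% of all genes. The lower ones were IFT57, IFT56 and IFT52 (-0.25) of IFT-B, KIF3B, BBS1, ARL3 and RPGRIP1L, and the higher ones BBS10, SPAG16, OFD1 and RFX3.

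With siMESH1+siATF4 against siNT, the median was 0.05 and 29 of the 47 differences were above 0. SPAG16 was called higher and RPGRIP1L lower, 1 each, against 4.4% and 5.25% of all genes. Without the fold minimum 10 were higher and 3 lower, against 19.5% and 16% of all genes, shares of 21.3% and 6.38% of the cilium genes. The genes that rose with siMESH1 alone differed from siNT by 0.19 for DYNC2LI1, -0.06 for DNAAF11, 0.08 for IFT22, 0.27 for BBS4 and -0.04 for CEP290 in the double silencing, none of them called.

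Set directly against siMESH1, siMESH1+siATF4 gave 6 lower and 0 higher calls, against 2.68% and 3.42% of all genes. The 6 were DYNC2LI1, IFT22, IFT57, BBS1, CEP290 and DNAAF11. In 25 of the 47 every siMESH1+siATF4 array was below every siMESH1 array, against 20.7% of all genes, and 13 were lower at an adjusted p under 0.05 without the fold minimum, against 12.4%. This comparison shares the siMESH1 arrays with siMESH1 against siNT, so the 2 are not independent, and the same holds for siMESH1 against siATF4. The IFT22 difference was -0.49 without siMESH1 replicate 3 and -0.48 without siMESH1+siATF4 replicate 2, and the CEP290 difference was -0.39 without siMESH1 replicate 3 and -0.496 without siMESH1+siATF4 replicate 1, each under the fold minimum.

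The single silencings were also set against each other. With siMESH1 against siATF4, 9 genes were called higher and 0 lower, 19.1% of the group, against 3.91% and 4.75% of all genes. Besides KIF3B, IFT57 and ARL3 these were DYNC2LI1 (0.94), DNAAF11 (0.90), IFT22 (0.79), CEP290 (0.67), BBS1 (0.66) and RPGRIP1L (0.65). At an adjusted p under 0.05 with no fold minimum 20 were higher and 0 lower, against 15.9% of all genes higher. Proliferation markers, which fell in both groups against siNT, gave 0 calls of 10 in this comparison, with a median of -0.16. Without the fold minimum 4 of the 10 were lower, against 17.6% of all genes. In 7 every siMESH1 array was below every siATF4 array, against 23.5% of all genes. The part of this difference in the cilium gene values was not tested.

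Whether MESH1 silencing acted differently with ATF4 silenced was tested with the interaction, the effect of siMESH1 on top of siATF4 minus its effect on top of siNT. The 2 effects share no array. The median effect over the cilium genes was 0.07 with siATF4 present and 0.21 without it, and the difference was larger without it in 38 of the 47 genes (80.9%), against 55.1% of all genes. Both differences were above 0 in 36 of the 47. With siATF4 present, 0 genes were called in either direction for siMESH1+siATF4 against siATF4, where 0.351% of all genes were called higher and 1.28% lower, while 7 were higher without the fold minimum, against 6.16%.

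The interaction was called in 2 genes, both negative, and in 0 positive, against 0.853% and 3.46% of all genes. In DYNC2LI1 the difference was 0.29 with siATF4 present and 0.84 without it, an interaction of -0.55 ± 0.08 (SE), adjusted p = 4.32e-04. In DNAAF11 it was 0.03 with siATF4 present and 0.82 without it, an interaction of -0.79 ± 0.21 (SE), adjusted p = 0.0247. The 2 probe sets of DYNC2LI1 gave interactions of -0.69 and -0.42, the second below the fold minimum (adjusted p = 0.00661), and DNAAF11 has 1 probe set. Leaving out siNT replicate 1, siATF4 replicate 1 or siMESH1+siATF4 replicate 1 or 2 took the adjusted p of DNAAF11 to between 0.0532 and 0.0608. Without the fold minimum the interaction was negative in 4 genes (4.06% of all genes) and positive in 1 (7.84%), and the positive one was IFT56 at 0.35. Of the 10 proliferation markers, 9 had a called positive interaction, with a median of 0.98, and their part in the cilium gene interactions was not tested.

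**Figure D4:**
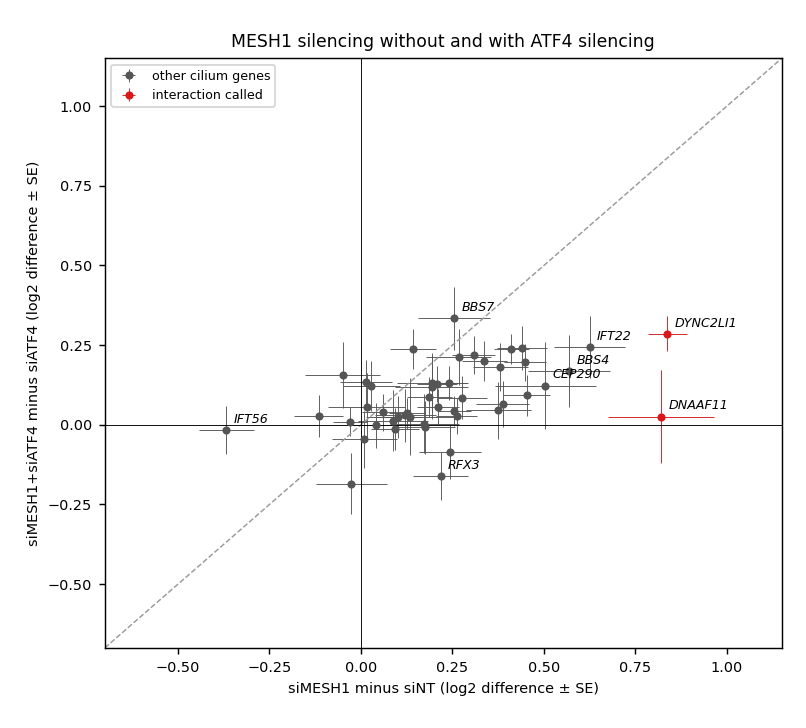
MESH1 silencing in each of the 47 cilium genes without siATF4 (x axis, siMESH1 minus siNT) and with it (y axis, siMESH1+siATF4 minus siATF4), as log2 differences ± SE of the fit, with the dashed line of equal differences. Red points are DYNC2LI1 and DNAAF11, the genes with a called interaction. In 38 of the 47 genes the point lies below the dashed line.

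Cilium genes outside the 47 were counted from 10 lists with 71 measured genes. With siMESH1 against siNT, 2 were called higher and 2 lower (2.82% each), against 2.82% and 5.37% of all genes, with a median of 0.08. With siMESH1+siATF4, 4 were called higher and 2 lower (5.63% and 2.82%), against 4.4% and 5.25% of all genes. With siATF4, 2 were called higher and 4 lower (2.82% and 5.63%), against 2.49% and 4.03% of all genes. TTBK2, the kinase that starts cilium growth, rose by 1.00, 0.88 and 0.60 with siMESH1+siATF4, siMESH1 and siATF4, and DNAH7, an inner arm dynein, rose by 0.53 with siMESH1. MNS1, an axonemal filament protein, stood at -1.70, -0.97 and -1.09 in those groups, called lower in each, LZTFL1, a BBSome regulator, was called lower at -0.56 with siMESH1+siATF4 and -0.66 with siATF4, and EHD3, of the early ciliary vesicle, fell by 0.71 with siMESH1. Without the fold minimum 20 of the 71 (28.2%) were higher and 5 (7.04%) lower with siMESH1, against 17.3% and 16.3% of all genes. With siMESH1 against siATF4, 8 were called higher and 0 lower, among them LZTFL1 (0.74), RAB23, a traffic GTPase (0.74), TULP3, an adaptor of IFT-A (0.53), and TMEM231 of the transition zone (0.53). These 8 were 11.3% of the 71, against 3.91% of all genes. Without the fold minimum 19 were higher and 9 lower (26.8% and 12.7%), against 15.9% and 17.6% of all genes. The Hedgehog pathway, which signals through the cilium, gave 0 calls of 8 genes in each of the 7 comparisons. Of all genes, 0.351% to 5.37% were called in a given direction, so 0 of 8 does not show an unchanged pathway. Without the fold minimum 2 of the 8 were higher and 1 lower with siMESH1, against 17.3% and 16.3% of all genes.

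The kinases AURKA, NEK2 and PLK1 and the proliferation markers fell in all 3 silenced groups. Of 11 measured genes of cilium disassembly and capping, 4, 3 and 4 were called lower and 1, 1 and 0 higher with siMESH1+siATF4, siMESH1 and siATF4, where 5.25%, 5.37% and 4.03% of all genes were called lower. The median of the 11 was -0.0019 with siMESH1, with 4 genes higher and 4 lower at an adjusted p under 0.05, and it was -0.18 with siMESH1+siATF4 and -0.32 with siATF4. AURKA, the kinase that triggers disassembly, stood at -1.73, -1.40 and -1.16 in those groups, called lower in each. NEK2 and PLK1, mitotic kinases, were called lower in each of these groups too. NEDD9, a scaffold that activates AURKA, rose by 0.69 with siMESH1+siATF4 and 0.80 with siMESH1. All 10 proliferation markers fell in each silenced group, with medians of -1.73, -1.42 and -1.23 in that order. The cilium gene medians were 0.05, 0.21 and -0.03 with siMESH1+siATF4, siMESH1 and siATF4. The 8 measured quiescence markers had medians of 0.03, 0.27 and 0.03 in the same groups. The part of the proliferation or quiescence markers in the cilium gene values was not tested.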

How the data were processed

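Per the labels and the study's methods, RNA was hybridised to Affymetrix arrays, and the authors deposited RMA log2 values from Affymetrix Expression Console, expressed relative to the siNT mean of each probe set. No source used here gives versions. Every siNT mean was within 0.00012 of 0 when checked. Probe sets with 1 symbol (19064 of 22277) were averaged per gene, giving 11963 genes. No gene was filtered, since the table holds no levels. All 12 arrays entered 1 limma 3.58.1 fit (lmFit, eBayes; R 4.3.3) with group means and no block (8 residual degrees of freedom), and p-values were adjusted by Benjamini-Hochberg over all genes. The script was tested on simulated data. The 3 arrays per group limit the precision. The 47 genes and the lists were chosen with earlier results of these data known. Text names every cilium gene called in any comparison, the gene with the largest mean absolute change in each role, transcription factors and PKD1, and up to 4 called genes per list. Other cilium genes are named as examples chosen after their values were seen. Promoters come from RefSeq (GRCh38.p14). Alternatives changed probe sets, centring, thresholds, variance model, block and arrays.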

Additional observations from a re-analysis of the deposited data

Results flagged for a closer look

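The 2 cilium genes below stood out: in each the effect of MESH1 silencing differed with and without ATF4 silencing by a test of the difference itself. In DYNC2LI1 the effect was 0.29 with siATF4 and 0.84 without it, an interaction of -0.55 (limma adjusted p = 0.000432), and siMESH1 exceeded siNT in 3 of 3 arrays. Its 2 probe sets gave -0.69 and -0.42, the second below the fold minimum. In DNAAF11 the effect was 0.03 with siATF4 and 0.82 without it, an interaction of -0.79 (limma adjusted p = 0.0247), again with 3 of 3 siMESH1 arrays above siNT. The DNAAF11 value rests on 1 probe set, and its adjusted p was between 0.0532 and 0.0608 without siNT replicate 1, siATF4 replicate 1, or siMESH1+siATF4 replicate 1 or 2.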

How the results depend on the processing

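No called difference changed sign under the alternatives tried, but the siATF4 median, which has no test, did. Calls are counted over the cilium genes for siMESH1, siATF4 and siMESH1+siATF4 against siNT, then siMESH1+siATF4 against siMESH1 and against siATF4, siMESH1 against siATF4, and the interaction, with 5, 1, 2, 6, 0, 9 and 2 calls in that order. With no fold minimum they were 25, 11, 13, 13, 7, 20 and 5, and with a log2 minimum of 1 they were 0 in each. Centring on 11 housekeeping genes, whose mean lay at -0.22 with siMESH1+siATF4, -0.33 with siMESH1 and -0.15 with siATF4 and which include TFRC at -1.17 with siMESH1, gave 29, 2, 7, 6, 0, 14 and 11 calls and medians of 0.54, 0.12, 0.28, -0.21, 0.14, 0.34 and -0.36, while the all-gene medians moved to 0.36, 0.17, 0.23, -0.12, 0.07, 0.19 and -0.28. Without probe sets ending in _x_at or _s_at the calls were 3, 0, 1 and 2 for the first 4 comparisons and 5 for siMESH1 against siATF4, over fewer genes, and the siATF4, siMESH1+siATF4, siMESH1+siATF4 against siMESH1 and siMESH1 against siATF4 medians were 0.043, 0.101, -0.072 and 0.143. The shares of all genes called with housekeeping centring and without these probe sets are not given here. The counts of cilium genes in those settings therefore cannot be set against all genes. With siMESH1, housekeeping centring moved the median of all genes from 0.03 to 0.36, nearer the fold minimum. Whether the 29 calls exceed the share of all genes in that setting was not tested. Centring arrays on their medians moved the siMESH1+siATF4 against siMESH1 median to -0.091 and left CEP290 at 0.48 with siMESH1. The methods' t-test after Benjamini-Hochberg gave 3 calls with siMESH1 and 1 with siMESH1+siATF4, against 928 and 1102 calls over all genes. By this t-test DNAAF11 (adjusted p = 0.0535) and CEP290 (0.112) were lost with siMESH1, and RPGRIP1L (0.0552) with siMESH1+siATF4. DNAAF11 was also lost against siMESH1 in the double silencing (0.0528) and in siMESH1 against siATF4 (0.0626), as was CEP290 (0.107 and 0.101). Requiring every probe set to be called left 1 interaction, DNAAF11, which has only 1 probe set, so the requirement asks less of it. DYNC2LI1 was dropped for its second probe set, at -0.42. Leaving out each array in turn gave 3 to 5, 1 to 2, 0 to 2, 4 to 7, 0 to 0, 9 to 10 and 1 to 2 calls, and medians of 0.20 to 0.23, -0.04 to -0.02, 0.016 to 0.056, -0.11 to -0.10, 0.057 to 0.091, 0.14 to 0.18 and -0.15 to -0.11. Same-numbered arrays did not deviate together (correlations -0.19 to 0.095, 0 of 18 pairs over 0.1), and the fit with the replicate block gave the same 5, 1, 2, 6, 0, 9 and 2 calls. The cause of these changes was not tested, apart from the thresholds themselves.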
